A study of Gallus gallus with 4 samples.

Results

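The distal part of chicken chromosome Z held a stretch of 7.89 Mb, Z:75990615-83875883 in assembly ASM2420605v2, in which nearly all transcription units (TUs) of lampbrush chromosome (LBC) stage oocytes had been assembled from reverse reads. A TU was 1 gene of the de novo StringTie assembly, and the transcript with the highest FPKM stood for it. FPKM is the number of fragments scaled to transcript length and to sequencing depth. The members were chosen by position, as all TUs of chromosome Z with a midpoint inside these bounds, and the bounds had been selected on the direction of transcription in the same assembly. The rule found 243 TUs of the 22884 in the assembly, hereafter the array. The rest of Z held 854 TUs and the autosomes 21629. Stranded poly(A) RNA libraries had been made from wild-type chicken oocytes at the LBC stage, 2 from single isolated nuclei and 2 from ooplasm, the oocyte cytoplasm. The reads were pooled with earlier total RNA of oocyte nuclei, so 1 value exists per transcript, there are no replicates, and the depth per library is unknown. Whether ooplasm reads entered the pool is not stated in the sources used here. All comparisons below are therefore descriptions of 1 assembly, without tests, and the TUs of a repeat are not independent of each other.

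Lampbrush chromosomes are the extended meiotic chromosomes of growing oocytes, which carry pairs of side loops that are transcribed along their length. Z is the sex chromosome that males carry as a pair and hens as a single copy beside W. Its distal end is known in the chicken for a heterochromatic block and for a large tandem repeat region with multicopy genes that are active in the testis. Introns of duplicated genes can keep their lengths after duplication, so equal lengths of introns and exons in the same order can be a trace of common descent that can be read from a transcript assembly without its sequence. No genome of this assembly was used here, hence no sequence or gene name is given for the TUs, which carry the identifiers of the assembly.

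The reverse run supplied 242 of the 243 TUs and the forward run 1. Because the bounds rest on direction, this share is a description of the choice and nothing is read from it. By the strand assigned to each transcript, 241 TUs lay on the minus strand and 2 on the plus strand. The first TU inside the proximal bound was REV.11210 (Z:75990615-75998096, 10 exons, 1.07 FPKM), whereas the nearest TU outside was REV.11208 on the plus strand (Z:75962675-75989766, 2 exons, 0.41 FPKM). REV.11209 on the minus strand (Z:75984312-75986464, 2 exons, 0.21 FPKM) lay within its span. The last TU inside was REV.11182 (Z:83868161-83875883, 4 exons, 4.59 FPKM). After a gap of 69.2 kb it was followed by FORW.11366 on the plus strand (Z:83945057-83977503, 8 exons, 17.4 FPKM). The proximal bound thus fell inside a zone of weak minus-strand TUs: between 75 Mb and the bound, 15 of 18 TUs were on the minus strand and their median was 0.41 FPKM. The distal bound separated the array from 11 TUs up to 85 Mb with a median of 2.10 FPKM, 6 of them on the plus strand.

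The TUs of the array were weak along its whole length. The FPKM ran from 0.14 to 6.13 with a median of 0.46 and quartiles of 0.32 and 0.68, against a median of 2.17 and quartiles of 0.72 and 8.03 on the rest of Z. The autosomes had a median of 2.06. In read coverage the medians were 4.78 reads per base in the array, 23.1 on the rest of Z and 21.7 on the autosomes. Only 27 array TUs (11.1%) reached 1 FPKM, compared with 66.5% on the rest of Z and 66.6% on the autosomes. In steps of 1 Mb from the proximal bound, the median stayed between 0.40 and 0.55 FPKM with 22 to 39 TUs per step.

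**Figure D1:**
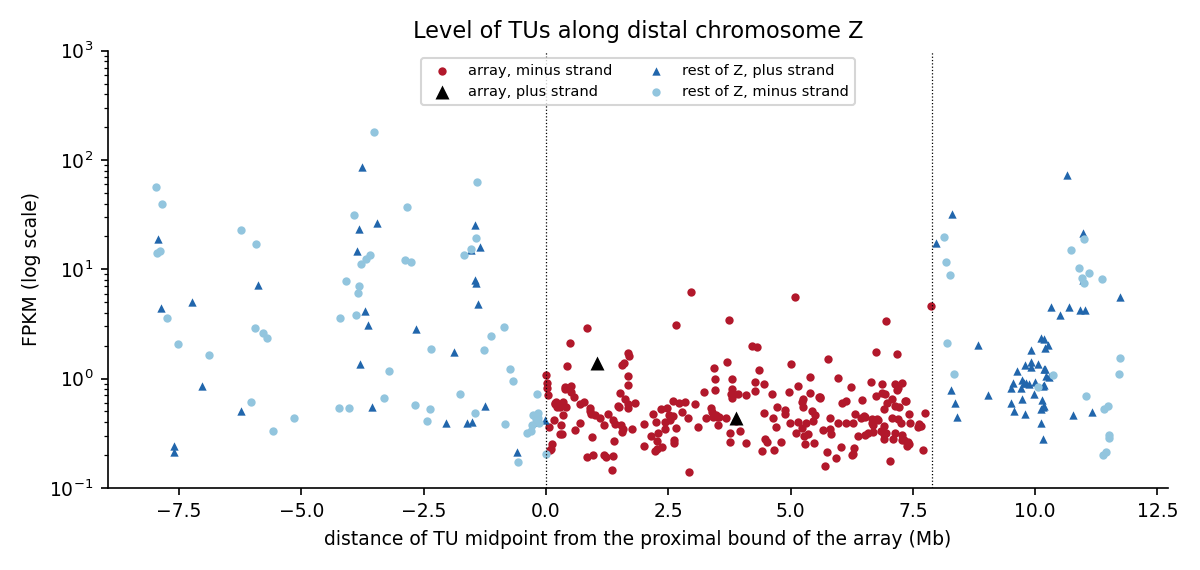
FPKM (log axis) of TUs on distal chromosome Z against the distance of their midpoint from the proximal bound of the array, in Mb. Red circles and black triangles are array TUs of the minus and plus strand, blue triangles and light blue circles the TUs outside. Dotted lines mark the bounds. Array TUs lie between 0.14 and 6.13 FPKM, with many TUs above 10 FPKM on either side.

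The median span was 3.16 kb in the array and 11.8 kb on the rest of Z, so array TUs were also short. Since short TUs are generally weak in this assembly, each array TU was set beside the TUs whose span lay within 10% of its own. Of the 243 array TUs, 194 (79.8%) were below the median of their span-matched Z TUs and 206 (84.8%) below that of their span-matched autosomal TUs. The median ratio of an array TU to its comparators was 0.60 for Z and 0.50 for autosomes. The assembler accepted single-exon transcripts only from 3.5 reads per base, but multi-exon transcripts from 1.2 reads per base, so weak single-exon TUs are missing to a greater extent. Among multi-exon TUs alone, 187 of 207 (90.3%) were below the span-matched Z median and 197 (95.2%) below the autosomal one, with ratios of 0.32 and 0.28. Single-exon TUs, with medians of 0.50 FPKM in the array, 0.64 on the rest of Z and 0.65 on the autosomes, lay closer together. How reads that match several places of the genome were treated is not stated in the sources used here, and its part in these levels was not tested.

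**Figure D2:**
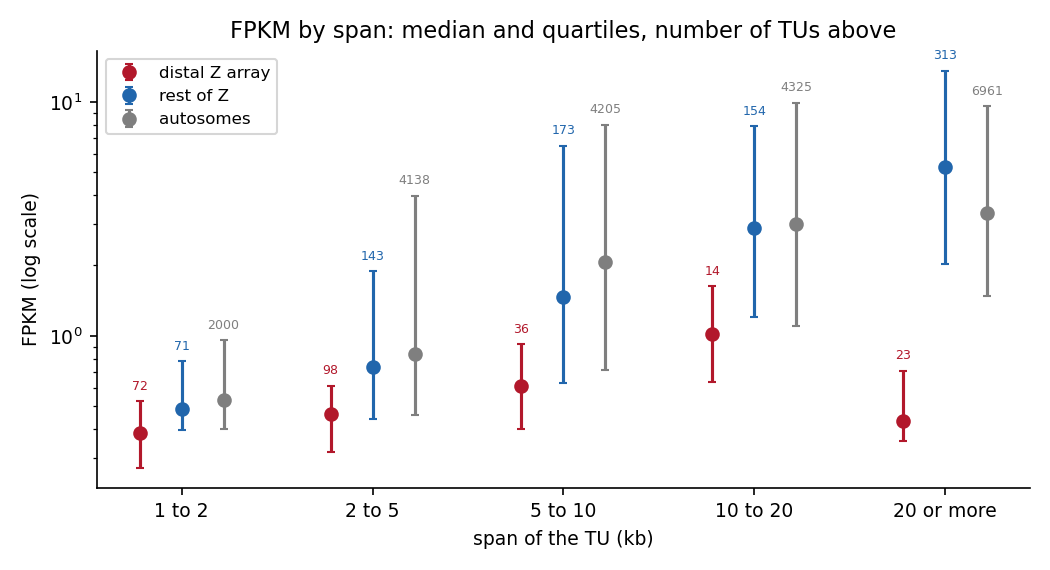
FPKM (log axis) by span class in kb for the array (red), the rest of Z (blue) and the autosomes (grey). Points are medians, bars run between the quartiles and the number over each bar is that of the TUs. The array median is the lowest of the groups in every class, 0.39 FPKM at 1 to 2 kb and 0.43 FPKM at 20 kb or more.

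In form, array TUs had a median of 2 exons, against 4 on the rest of Z but also 2 among span-matched Z TUs. The order changed with span: the medians were 5 in the array and 2 on the rest of Z at 5 to 10 kb. At 20 kb or more they were 3 and 12. Single-exon TUs made up 36 of the 243 (14.8%), compared with 24.6% on the rest of Z and on average 43.3% among span-matched Z TUs. Another 102 TUs had 2 exons, 68 had 3 or 4, 29 had 5 to 9 and 8 had 10 or more. Exons covered a median of 75.7% of the span of an array TU. Span-matched Z TUs reached 91.8%, but this order depended on single-exon TUs, since among multi-exon TUs the array had 69.3% and span-matched Z TUs 60.6%. The median of the 515 introns was 408 bp, and 433 of them (84.1%) were shorter than 1 kb. Multiple transcripts were assembled for 51 TUs (21.0%), with a maximum of 6, against 36.3% of TUs on the rest of Z. Array TUs were dense, at 30.8 per Mb compared with 10.7 per Mb on the rest of Z. The median gap between successive minus-strand TUs was 16.2 kb, against 68.5 kb between TUs of the same strand on Z proximal to the array. Because the bounds rest on direction, whereas both strands are mixed on proximal Z, part of this difference in gaps follows from the choice. Some neighbours nearly abutted: REV.11268 ended at Z:77658541 and REV.11269 began at Z:77658692. REV.11269 ended at Z:77662393 and REV.11270 began at Z:77662544. Whether such neighbours are pieces of a single transcript split by the assembly was not tested. Splitting would raise the density and lower the spans and exon numbers given here. The TU spans together covered 29.2% of the segment and the exons 8.44%.

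The array carried a small part of the reads of its chromosome. Coverage times exonic length was summed over the representative transcripts, so read bases of other transcripts of a TU were not counted. This gave 5.46 Mb of aligned read bases, 1.58% of those on Z. The array held 22.2% of the TUs of Z and 12.4% of their exonic bases. Of the same sum over all TUs of the assembly its share was 0.0562%. The mean depth was 8.21 reads per exonic base in the array and 72.5 on the rest of Z. Within the array the coverage was uneven, as 10 TUs held 33.2% and 24 TUs held 50.9% of its read bases. REV.11320 came first with 5.13% of the read bases, and REV.11182 at the distal bound second.

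The highest level, 6.13 FPKM, belonged to REV.11303 (Z:78957232-78958877), a TU of 2 exons with an intron of 617 bp. It was followed by REV.11354 (5.53 FPKM, Z:81077092-81086564, 10 exons), REV.11182 (4.59 FPKM), REV.11320 (3.44 FPKM, Z:79718752-79738063, 12 exons) and REV.11421 (3.33 FPKM, Z:82942670-82946153, 3 exons). These 5 TUs lay between Z:78957232 and Z:83875883. None was in the first 2 steps of 1 Mb, where the highest levels were 2.92 and 1.72 FPKM. Of the 5, REV.11354, REV.11320 and REV.11421 shared runs of exon and intron lengths with other array TUs. Those of REV.11354 and REV.11320 are described below. In REV.11421 the run was an internal exon of 157 bp between introns of 80 and 554 bp, shared with REV.11242 and REV.11408.

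Intron lengths recurred within the array. Of its 515 introns of at least 50 bp, 345 (67.0%, 95% Wilson interval 62.8% to 70.9%, counting error only) had an intron of exactly the same length in another array TU. Such an intron was present in 165 of the 207 multi-exon TUs, and in 71 of the 102 TUs with only 2 exons. Equal lengths also arise by coincidence, and more often in larger sets and among short introns. In consecutive windows with equally many introns, the rest of Z had 7.05% to 29.6% (11 windows) and the autosomes 6.99% to 69.8% with a median of 21.2% (212 windows). The windows were not matched to the array in intron length. A single autosomal window, on chromosome 33, was above the array. When only introns of at least 200 bp were counted, the array had 63.7%, the windows of the rest of Z 8.04% to 22.2% and the autosomal windows 6.81% to 36.9%. With lengths equal within 2 bp, the array had 85.2%, the windows of Z up to 64.7% and the autosomal windows up to 87.2%. Windows of equally many TUs held more introns than the array, 1622 to 2041 on the rest of Z and 775 to 1942 on the autosomes. With exact lengths their shares were 31.6% to 43.9% (3 windows) and 15.8% to 66.9% with a median of 40.4% (75 windows).

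**Figure D3:**
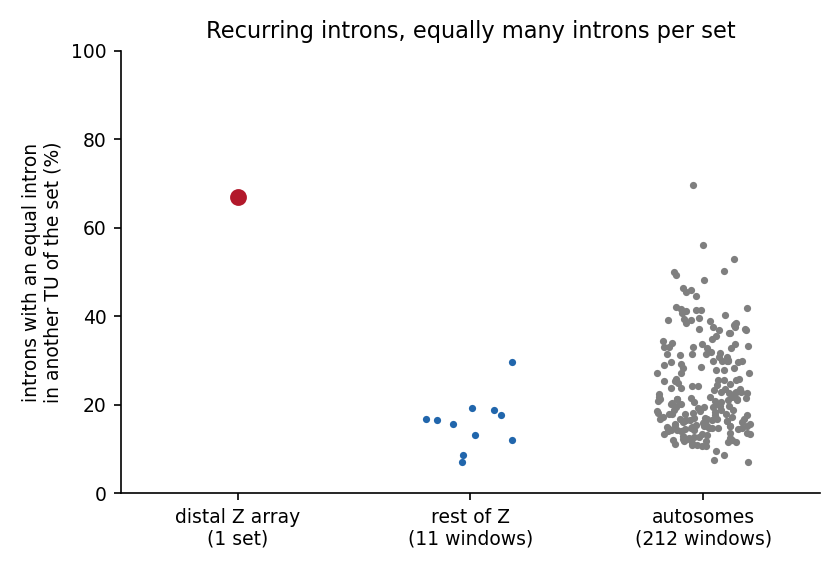
Share of introns, in percent, that have an intron of exactly equal length in another TU of the same set. The red point is the array (67.0%), blue points are 11 windows of the rest of Z and grey points 212 windows of the autosomes with equally many introns. The highest Z window has 29.6% and 1 autosomal window lies above the array at 69.8%.

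Among the recurring lengths, 7 were found in at least 10 array TUs each, and they made up 98 of the 345 recurring introns (28.4%). An intron of 399 bp occurred in 22 TUs, 204 bp in 20, 87 bp in 13, 594 bp in 12, 595 bp in 11, and 100 bp and 295 bp in 10 each. The same lengths were found in 2 to 11 of the 854 TUs on the rest of Z. At least 1 of them was present in 80 array TUs (32.9%), in 3 of 18 TUs (16.7%) in the 1 Mb proximal to it and in 8 of 51 (15.7%) from 85 to 87 Mb. Among the other 785 TUs of Z the share was 3.31%, and among autosomal TUs 3.99%. These lengths were picked for their number in the array, so the first value describes the choice. The 399-bp intron was the last intron before the 3′ terminal exon in all 22 TUs. In 9 of them it was the only intron, so that only the other 13 bear on its place. Where it followed an internal exon, this exon measured 145 bp in 8 of 13 TUs. The 204-bp intron was followed by an exon of 122 bp in all 14 TUs in which the next exon was internal. The 87-bp intron followed an exon of 164 bp in all 8 TUs with an internal exon before it. An exon of 116 bp preceded the 594-bp intron in 6 of 7 such TUs and the 595-bp intron in 7 of 7.

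**Figure D4:**
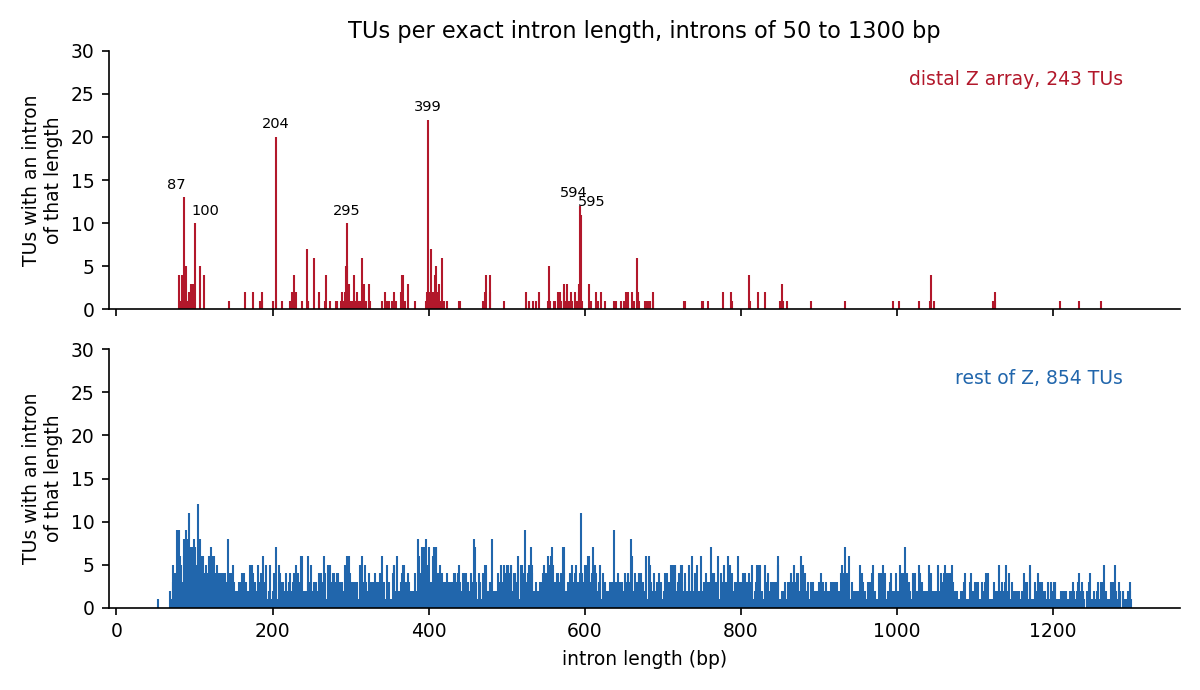
Number of TUs that hold an intron of a given exact length, for lengths of 50 to 1300 bp. Top, array (243 TUs); bottom, rest of Z (854 TUs). In the array, lengths of 399 and 204 bp stand out with 22 and 20 TUs, whereas the rest of Z has no comparable peak at 399 bp (5 TUs).

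TUs were joined into families when they shared an intron, an internal exon and an intron with the same 3 lengths in the same order. Of the 105 TUs with at least 3 exons, 36 fell into 10 such families, the largest of 10, 7 and 3 TUs. Families were formed in the array only, so these counts and those below have no share elsewhere beside them. When runs were linked if each length was equal within 2 bp, 49 TUs fell into 3 families of 30, 17 and 2 TUs. Runs were linked step by step, so lengths within a linked group can differ by more than 2 bp. The largest of these held REV.11354, REV.11233, REV.11242 and REV.11429, described below for the first chain of exons. The next held REV.11378 and REV.11232 of the second chain. Families join TUs through any shared run, so not every member holds the exons listed for its chain. In the largest family, REV.11421 for example held none of them. In the next, REV.11213, REV.11230, REV.11271, REV.11281, REV.11330, REV.11353 and REV.11439 held none. Conversely, REV.11289 had exons of 122 and 77 bp of the first chain but was in no family. REV.11413, with exons of 72, 123 and 78 bp of the second chain, fell into the family of 2 TUs. The sizes, extents and levels of the families are therefore not those of the TUs with the chains alone. The families of 30 and 17 TUs extended over nearly the whole segment, at 0.067 to 7.67 Mb and at 0.0037 to 7.33 Mb from the proximal bound. The TUs of the largest family had 0.28 to 5.53 FPKM (median 0.60) and those of the next 0.23 to 1.52 FPKM (median 0.81).

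The first chain is described from the member with the highest level and the member with the most introns of the exact-match family of 7 TUs, REV.11354 and REV.11233. In REV.11354, the internal exons measured 79, 116, 201, 546, 122, 77, 67 and 145 bp from 5′ to 3′. They were separated by introns of 409, 594, 344, 204, 473, 854 and 2362 bp, and the 399-bp intron and a terminal exon of 1102 bp followed. In REV.11233 (Z:76466367-76479953, 11 exons, 2.10 FPKM), 4.61 Mb closer to the proximal bound, the order was 124, 79, 116, 1086, 122, 77, 67, 147 and 125 bp, with introns of 777, 409, 591, 204, 555, 853, 1932 and 317 bp between them. REV.11242 (Z:76824864-76837323, 15 exons, 2.92 FPKM) and REV.11429 (Z:83148770-83164797, 12 exons, 1.67 FPKM) held 151, 122 and 77 bp in the same order. In REV.11354 and REV.11233, the exons of 122, 77 and 67 bp came in the same order, with the same intron before them and introns of differing length between them.

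The intron between a given pair of exon lengths often varied. Of 30 pairs of neighbouring internal exons found in at least 2 array TUs, 9 had a single intron length. Exons of 122 and 77 bp followed each other in 12 array TUs, in 11 of which the intron measured 472 to 581 bp. In REV.11289 it measured 93.8 kb. Exons of 77 and 67 bp were neighbours in 9 TUs with introns of 822 to 859 bp. The exon of 67 bp was followed by 1 of 145 bp in 5 TUs (introns of 1925 to 2387 bp) and by 1 of 147 bp in 4 TUs (1043 to 2142 bp). In contrast, the 204-bp intron between exons of 151 and 122 bp had a single length in all 3 TUs. All these pairs also occurred outside the array. There, 7 TUs had the pair of 122 and 77 bp (introns of 85 to 1061 bp). The pair of 77 and 67 bp was in 14 outside TUs (273 to 5090 bp). The exon of 67 bp preceded 145 bp in 3 outside TUs and 147 bp in 7. The pair of 151 and 122 bp was in 10 outside TUs (79 to 7943 bp). In REV.11372 (Z:81571596-81581723, 0.68 FPKM), the exon of 122 bp was joined to that of 67 bp by an intron of 1123 bp, without the exon of 77 bp. This junction was found in 3 array TUs, and 9 TUs outside the array had the same pair with introns of 88 to 9132 bp. Single exon lengths were not confined to the array. The 6 internal exon lengths picked for being in at least 10 array TUs were in 11 to 19 of its 243 TUs. On the rest of Z they occurred in 12 to 38 of the 854 TUs each, a smaller share of TUs for every length.

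The second chain was longest in REV.11378 (Z:81754980-81771631, 22 exons, 1.52 FPKM) and REV.11232 (Z:76411933-76433542, 21 exons, 1.32 FPKM), which lie 5.34 Mb apart. Towards the 3′ end, REV.11232 had internal exons of 72, 123, 78, 82, 156, 103, 133, 83, 108, 146, 202 and 146 bp. The same 12 positions in REV.11378 measured 72, 123, 78, 82, 150, 103, 133, 83, 108, 146, 202 and 146 bp, so that 11 of 12 lengths were equal. Of the 11 introns between them, REV.11232 had 224, 274, 413, 314, 592, 89, 317, 358, 268, 365 and 412 bp. REV.11378 had 212, 403, 413, 314, 587, 89, 440, 369, 267, 367 and 412 bp. The introns of 413, 314, 89 and 412 bp were identical, and others differed by up to 129 bp. Shorter TUs carried parts of this chain: REV.11210 at the proximal bound and REV.11360 (Z:81233595-81236527, 0.55 FPKM) held exons of 108, 146, 202 and 146 bp. Closer to the 5′ end, the exons of 189, 350 and 482 bp with introns of 84 and 374 bp were common to REV.11378 and REV.11352.

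**Figure D5:**
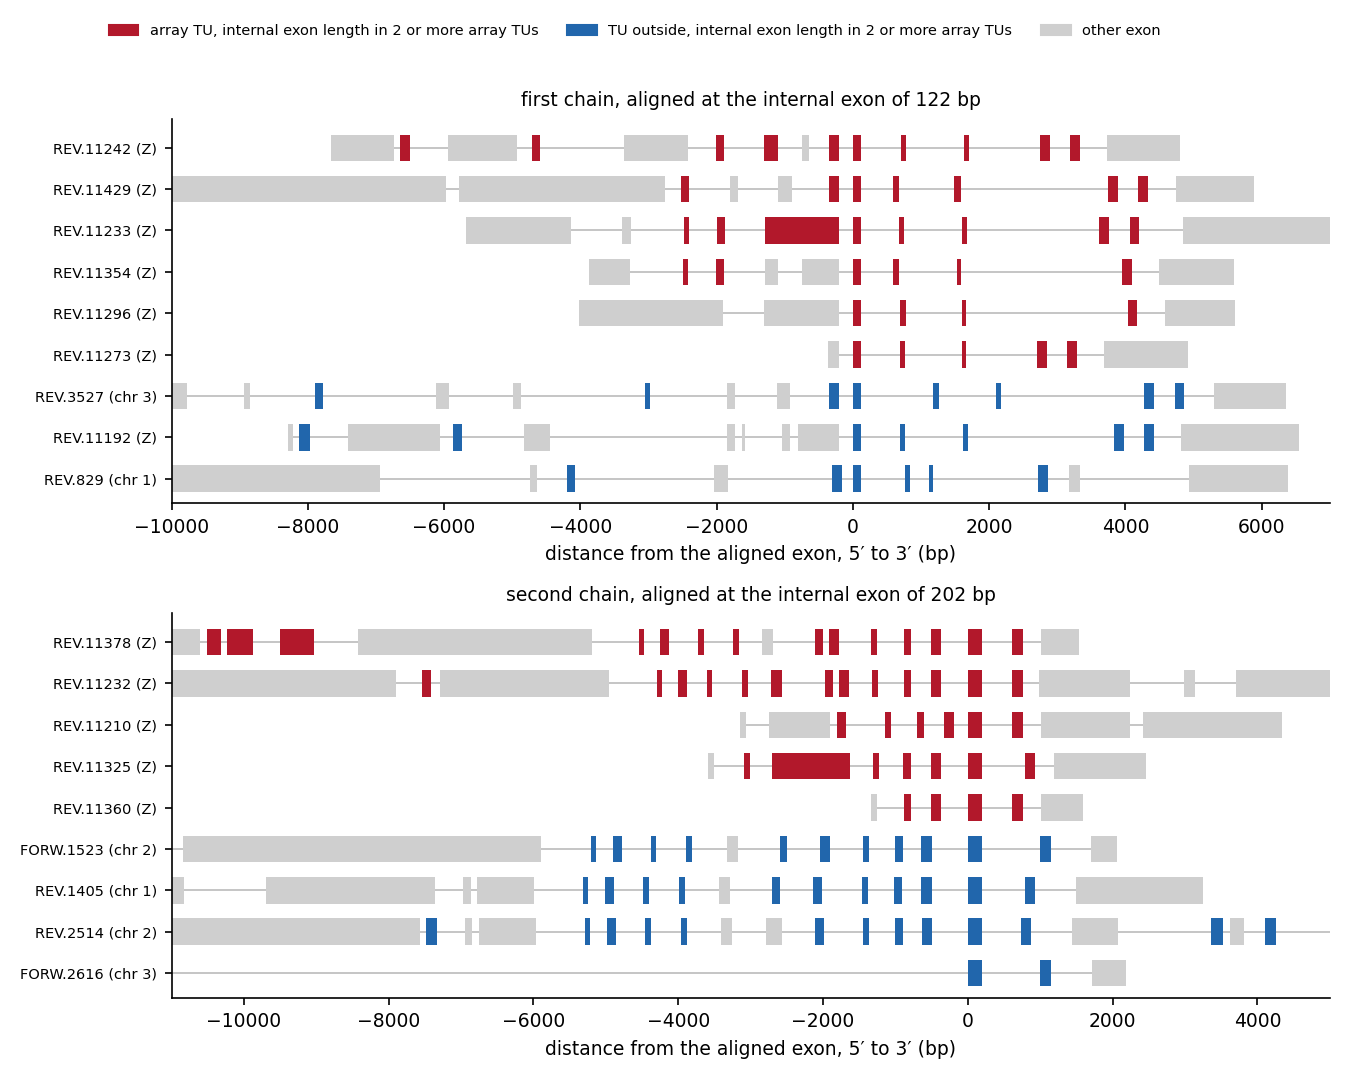
Exon maps to scale, 5′ to 3′, of array TUs (red) and of TUs outside the array (blue). The upper panel aligns the first chain at the exon of 122 bp, the lower panel the second chain at the exon of 202 bp, with distances in bp. Coloured boxes are internal exons whose length occurs in at least 2 array TUs, grey boxes are other exons, lines are introns, and exons beyond the axis limits are not drawn. In the array TUs of the lower panel the aligned exon of 202 bp is followed by an exon of 146 bp after 408 to 587 bp.

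The third family comprised REV.11213 (Z:76009555-76011150, 5 exons, 0.81 FPKM), REV.11281 and REV.11439 (Z:83316997-83331890, 7 exons, 0.63 FPKM). In REV.11213 exons of 213, 102 and 143 bp followed each other with introns of 100 and 93 bp. REV.11439, 7.32 Mb distal to it, had introns of 100 and 92 bp between the same exons. Within 2 bp, this family merged with the family of the second chain. The 3′ part of REV.11320 had internal exons of 79, 116, 67 and 145 bp in the order of the first chain, followed by the 399-bp intron. Its 5′ part had internal exons of 164, 202 and 108 bp.

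Coverage along the chains was uneven from exon to exon. In REV.11378 it ranged from 4.84 to 35.9 reads per base over 22 exons, and in REV.11232 from 2.23 to 21.7 over 21 exons. REV.11242 had 1.64 reads per base on its 5′ terminal exon and 101 on an internal exon of 116 bp. The 3′ terminal exon had more coverage than the 5′ terminal exon in 56 of 105 array TUs with at least 3 exons (53.3%), in 66.9% of such TUs on the rest of Z and in 61.3% on the autosomes.

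Like units did not stand at a constant distance. Successive copies of a shared run of intron, exon and intron lay 44.2 kb to 7.32 Mb apart, with a median of 2.10 Mb over 28 distances. The 24 runs were each found in 2 or 3 TUs, so most distances separate a single pair of TUs. A pair sharing several runs was counted for each, as were REV.11352 and REV.11378 at 794 kb. Copies of the 399-bp intron lay 37.0 kb to 1.36 Mb apart (median 233 kb, 21 distances) and those of the 204-bp intron 29.5 kb to 1.84 Mb apart (median 303 kb, 19 distances). Internal exons of 77 bp were 29.5 kb to 2.22 Mb apart, with a median of 171 kb. The quartiles of the 399-bp intron were 129 and 366 kb. Only copies that were transcribed and assembled can be seen in these data, so the distances are those between assembled copies and not a period of the underlying repeat.

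The span of the longest TUs lay mostly in introns of at least 10 kb. Among the 23 TUs of at least 20 kb, 22 had an intron of at least 10 kb. The array held 28 such introns in 24 TUs, from 13.6 to 209 kb with a median of 47.3 kb. The longest TU was REV.11333 (Z:80089524-80301392, 212 kb, 1.97 FPKM), whose 3 exons summed to 2318 bp. It was followed by REV.11238 (121 kb), REV.11329 (119 kb), REV.11289 (99.9 kb) and REV.11349 (97.9 kb), which had 0.39, 0.33, 0.47 and 0.51 FPKM. REV.11238, REV.11329 and REV.11349 had a pair of such introns each, for example 71.1 and 47.7 kb in REV.11238. At least 1 other TU lay wholly inside 17 of the 28 introns, with up to 3 TUs in 1 intron. In 6 of the 28, an adjoining internal exon had a length found in at least 5 array TUs. REV.11289 joined exons of 122 and 77 bp over 93.8 kb, whereas in 11 other TUs these exons were 472 to 581 bp apart. Whether these junctions stem from transcripts or from reads placed on different copies of a repeat cannot be told apart in an assembly without its reads.

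The TUs on the plus strand differed in level. FORW.11365 (Z:77028324-77031672) was a single exon of 3349 bp with 14.7 reads per base and 1.39 FPKM, above the upper quartile of the array (0.68 FPKM). It overlapped no other TU, and its nearest minus-strand neighbours were 34.7 and 57.9 kb away. REV.11327 (Z:79873627-79877384, 2 exons, 0.44 FPKM) came from the reverse run but was assigned to the plus strand. It overlapped REV.11328 on the minus strand (0.41 FPKM), and both had an intron of 2577 bp, with starts 1177 bp apart. Another intron of 2577 bp was found in REV.11430 on the minus strand, 3.29 Mb further on.

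Parts of both chains were also found outside the array. Runs of at least 3 consecutive internal exons with the same lengths and order as in an array TU were present in 16 of 9387 TUs outside with at least 5 exons. Of these 16, 12 shared more than 1 run and 4 only 1. Matches of this kind are not particular to the array: 12 outside TUs shared a run of 4 exons with it, while windows with equally many TUs of at least 5 exons had a median of 12 such outside TUs on the rest of Z and of 9.5 on the autosomes. Within the array, in contrast, 24 of 37 TUs with at least 5 exons shared a run of 3 exons with another. In the windows of equally many such TUs, 0 to 4 did so on the rest of Z (10 windows) and 0 to 5 on the autosomes (224 windows).

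The TU with the most shared runs was REV.3527 on chromosome 3 (3:112313824-112349458, 39 exons, 5.80 FPKM). It held both chains in 1 transcript, with exons of 72, 123, 78, 82, 150, 103, 133, 83, 108, 146 and 202 bp in its 5′ part and 151, 122, 77, 67 and 147 bp in its 3′ part. Of its introns between exon pairs that also occur in the array, 2 of 17 had a length found there. FORW.1523 (2:11516-25780, 2.16 FPKM), REV.1405 (1:200008658-200024825, 1.13 FPKM), FORW.1 (1:13570-31691, 3.31 FPKM) and REV.2514 (2:152084789-152106007, 1.62 FPKM) carried 6 to 12 consecutive exons of the second chain. These 5 TUs lay 0.0060 to 0.0085 Mb from the outermost TU end of their chromosome. Of the 13 matching TUs outside Z, 10 were within 1 Mb of such an end, compared with 13.7% of the 8983 TUs with at least 5 exons outside Z. These 10 are not independent of each other. In REV.3527, FORW.1523, REV.1405 and FORW.1 alike, an intron of 400 bp lay between exons of 123 and 78 bp. An intron of 581 bp lay between their exons of 150 and 103 bp. Neither length was found between these exons in the array. Between the exons of 103 and 133 bp, REV.11232 and REV.11378 of the array had an intron of 89 bp, against 453 or 456 bp in REV.3527, FORW.1523, REV.1405 and FORW.1. The 413-bp intron between exons of 78 and 82 bp was present in REV.11232 and REV.11378 and in the same 4 TUs outside. REV.9536 on chromosome 24 (24:1196586-1368126, 1.97 FPKM) had the exons of 123, 78, 82, 150 and 103 bp in the same order, with introns up to 17.9 kb between shared pairs and none equal to those of the array.

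Among the matching TUs outside the array, a TU on Z beyond it had the most introns equal to those of the array between the same exon pairs. FORW.11408 (Z:86238684-86256451, 17 exons, 2.02 FPKM) was on the plus strand and had the exons of 72, 123, 78, 82, 156, 103, 133 and 83 bp of REV.11232 in the same order. Its introns of 403, 314 and 89 bp were each found in the array between the same exons, and 5 of its 8 introns between shared pairs had a length present there. It belonged to a stretch from 85 to 87 Mb in which 44 of 51 TUs were on the plus strand, with a median of 1.05 FPKM. On the proximal side, REV.11192 (Z:75121004-75135844, 15 exons, 2.94 FPKM) carried the 3′ part of the first chain, with exons of 122, 77, 67, 147 and 145 bp, the 204-bp intron before them and the 399-bp intron after them.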

How the data were processed

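Transcripts of wild-type chicken oocytes at the LBC stage were analysed from 1 deposited assembly. The authors trimmed reads with cutadapt, aligned them with HISAT2 to ASM2420605v2, removed duplicates with SAMtools, pooled the reads by direction and ran StringTie. Per the file headers, StringTie 2.2.2 required a coverage of 1.2 where a transcript had several exons and of 3.5 where it had 1, 5 junction reads, a length of 1000 bp and gaps up to 300 bp. The deposited coverage, FPKM and TPM are values of pooled reads, so the depth per sample is unknown and nuclei and ooplasm were not compared. Lengths, recurrence, families and spacing were computed with Python 3.11.15, pandas 2.3.3 and networkx 3.6.1, and the functions were tested on simulated data with planted repeats. The members, gene lists and measures were chosen with earlier results of these data known. TUs named are the plus-strand TUs, the 5 with the highest FPKM, the longest span and the most exons, those at the bounds, and the strongest and most intron-rich member of the 3 largest families. The exon chains, the other TUs named with them and the TUs outside the segment were chosen after their values were seen. Alternatives changed the representative transcript, filters, bounds, comparators and length tolerance. Sequences were not analysed, as no genome of this build was used here.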

Additional observations from a re-analysis of the deposited data

How the results depend on the processing

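Of 63 values recomputed under other settings, 39 stayed within the 95% interval of the reported value or within 1.5 times of it, and 24 did not. Some could not change, such as the number of TUs when the strand of each transcript was used. The intervals also treat TUs and introns as independent, so this tally does not measure stability. With only TUs of at least 5 kb, 73 TUs remained, 100% of them from the reverse run, with a median of 0.63 FPKM, a median span of 10.1 kb, exons over 48.2% of the span (43.3% in span-matched Z TUs) and 2.74% single-exon TUs. Then 91.8% of TUs were below the span-matched Z median, 91.8% below the autosomal one, and 48.9% of introns recurred. With only multi-exon TUs, 90.3% and 95.2% were below these medians, and exons covered 69.3% of the span, against 60.6% in Z comparators. A coverage of at least 3.5 gave a median of 0.56 FPKM, a span of 3.82 kb and 20.1% single-exon TUs. Lengths equal within 2 bp raised recurring introns to 85.2% and the largest family to 30 TUs, whereas runs of 2 internal exons left 1 family of 2 TUs, spaced 794 kb apart. The longest span as representative left 5 TUs in the largest family. Spacing over the 7 frequent introns, added after seeing the data, had a median of 370 kb over 91 distances. No paired analysis was possible because the deposited values are pooled over libraries. Coverage under the assembly minima, reads placed on several copies and copies that were not transcribed limit what can be seen.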

Other observations

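Of the 243 array TUs, 24 lay wholly within the span of another TU of the array, and 25 of 240 gaps between successive minus-strand TUs were at or below 0. The segment ended 3.85 Mb before the outermost TU end of Z, and the last stretch of Z, from 87 Mb on, held 14 TUs, 11 of them on the minus strand, with a median of 0.63 FPKM.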
